A study of Mus musculus with 2 samples.

Results

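The genes of cholesterol synthesis, its transcriptional control and lipoprotein handling were read in total RNA from mouse hippocampus. They were 31 genes chosen by symbol, of 55536 annotated genes in the gene table, and all 31 were found. Enzymes of synthesis were 18 of them: 7 from acetoacetyl-CoA to farnesyl diphosphate, 3 from there to lanosterol and 8 between lanosterol and cholesterol. The others were 7 regulators, and 6 genes for carriage, uptake, export and turnover. The 18 are not every enzyme of the pathway. The tissue came from 10-day-old mice of B6CASTF1/J, a cross of C57BL/6J with CAST/EiJ. There was 1 group with 2 replicate libraries, each made from 300 ng of RNA, labelled male and naming 3 males, with no word on pooling and no mutation, transgene or treatment in the labels. With no second condition, the results are levels, their spread, and how replicate 1 differed from replicate 2.

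Cholesterol is built from acetyl-CoA through mevalonate, isoprenoid diphosphates, squalene and lanosterol, and a last set of enzymes then reshapes the sterol rings. When membranes are low in sterol, the escort protein SCAP carries SREBP transcription factors out of the endoplasmic reticulum for cleavage, and they then switch on the synthetic enzymes. INSIG proteins hold the complex back when sterol is plentiful, and the liver X receptors respond to oxysterols by raising export genes. The blood-brain barrier keeps lipoprotein cholesterol out of the brain, so neural cells make their own, pass it between cells on apolipoprotein E, and clear the excess largely as 24-hydroxycholesterol made by CYP46A1. The second postnatal week in the mouse is a time of growing synapses and starting myelin, both rich in sterol.

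The libraries held 32035705 expected counts in replicate 1 and 29747193 in replicate 2. The 6 hippocampal markers (Prox1, Mpped1, Pcp4, Zbtb20, Neurod6 and Wfs1) were all above 1 TPM in both libraries, with sums of 543.28 TPM in replicate 1 and 565.27 TPM in replicate 2. Replicate 1 held 5226 counts from 183 Y-linked protein-coding genes, against 8 in replicate 2, and 25 counts of Xist, the RNA that coats the inactive X chromosome, against 30841. The counts of replicate 2 go against its label of male. It is therefore called the library labelled male, replicate 2, where a direction is drawn from it. Whether a difference between the libraries goes with this difference, with dissection or with the animals cannot be told apart. In bulk tissue, fewer cells of a type and less RNA per cell cannot be told apart either.

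Promoter sequence is shown first for the enzyme with the highest level. Hmgcs1 encodes cytosolic HMG-CoA synthase, which joins acetyl-CoA to acetoacetyl-CoA ahead of mevalonate, and is a textbook SREBP target. Promoter windows from RefSeq (GRCm38.p6), running from 250 bases before to 50 after an annotated start, were found for 27 of the 31 genes, in 38 windows. A sterol regulatory element core, searched as TCACNCCAC on both strands, was present in 1 of the 27 genes, Hmgcs1. Of the 10178 protein-coding genes with a window and at least 1 TPM in both libraries, called detected, 1.4% held it. Over all 32851 windows the share was 1.24%. In Hmgcs1 the core lies 137 bases before the start, on the same strand as the gene. In the whole 300-base window, chr13:119690101-119690400 (+ strand), capitals mark this core, the CCAAT boxes and the GC boxes, in both orientations.
Hmgcs1: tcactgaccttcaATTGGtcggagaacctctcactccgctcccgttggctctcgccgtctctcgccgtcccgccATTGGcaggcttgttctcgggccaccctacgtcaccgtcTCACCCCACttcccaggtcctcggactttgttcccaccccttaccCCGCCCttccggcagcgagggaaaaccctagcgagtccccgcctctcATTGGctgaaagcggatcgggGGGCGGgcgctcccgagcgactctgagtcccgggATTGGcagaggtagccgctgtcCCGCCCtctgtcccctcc

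Short promoter elements with which SREBPs are known to cooperate were common among the enzymes. A CCAAT box (CCAAT, either strand), the site of NF-Y, was present in 14 of the 15 enzymes that had a window, and in 42.9% of the 10178 detected protein-coding genes with one. A GC box (GGGCGG, either strand), the site of Sp1-type factors, was present in 14 of these 15 enzymes too, against 70.1% of the detected genes. The Hmgcs1 window held 4 CCAAT boxes and 3 GC boxes.

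The E-box CACGTG, which reads the same on both strands and can be bound by SREBPs and by other basic helix-loop-helix factors, was present in 6 of the 27 genes and in 11.7% of the detected genes. The 6 genes span ring enzymes (Hsd17b7, Sc5d, Dhcr7), regulators (Insig1, Scap) and the exporter Abca1. Dhcr7 has several windows, and its E-box lies in the window from 143823149 to 143823448. The leading Dhcr7 transcript starts outside that window, at 143829626. By alignment it held 78.7% of Dhcr7 TPM in replicate 1 and 83.5% in replicate 2. The E-box is in capitals with its flanking bases, and these stretches are shown because enzymes, regulators and an exporter all hold this motif. In each, the sequence runs 5′ to 3′ on the strand of its gene.
Hsd17b7, chr1:169969313-169969378 (- strand): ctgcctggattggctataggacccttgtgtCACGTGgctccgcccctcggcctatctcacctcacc
Sc5d, chr9:42264363-42264428 (- strand): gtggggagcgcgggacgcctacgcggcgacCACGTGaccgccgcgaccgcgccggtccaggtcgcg
Dhcr7, chr7:143823205-143823270 (+ strand): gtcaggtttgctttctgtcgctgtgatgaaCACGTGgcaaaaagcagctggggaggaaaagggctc
Insig1, chr5:28071281-28071346 (+ strand): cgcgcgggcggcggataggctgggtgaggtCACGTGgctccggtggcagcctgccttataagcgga
Scap, chr9:110333286-110333351 (+ strand): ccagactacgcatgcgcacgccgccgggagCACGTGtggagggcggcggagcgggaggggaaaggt
Abca1, chr4:53160007-53160072 (- strand): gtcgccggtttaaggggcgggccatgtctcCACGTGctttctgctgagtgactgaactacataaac

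The nuclear receptor hexamer AGGTCA (either strand), of which a liver X receptor site holds a pair, was present in Dhcr7, Hmgcs1 and Insig1, 3 of 27 genes, against 14.2% of the detected genes. In Insig1 it overlaps the E-box by 2 bases. A direct repeat of this hexamer with 4 bases between was present in none of the 27, in 0 of the 10178 detected genes and in 5 of all 32851 windows. A match to letters is a description of the window and no evidence of binding.

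All 31 genes were above 1 TPM in both libraries. Their median was 28.3 ± 0.262 TPM (SD, n = 2), against a median of 15.7 TPM over the 13062 protein-coding genes above 1 TPM in both. Single genes spread over a 1079-fold range of mean TPM, with Apoe at the top and Nr1h3 at the bottom. The 18 enzymes spanned 28.5-fold, with Hmgcs1 highest and Hsd17b7 lowest by gene TPM, around a median of 28.9 ± 0.113 TPM (SD, n = 2). TPM is scaled by transcript length, so these levels can be set beside one another between genes, within the limit of how reads are assigned to transcripts. In replicate 1 by alignment, Lss-202, of 352 bases, made 8.68 of the 29.5 TPM of Lss from 47.59 of 1922 counts. Some ratios between genes move with the route or with coding transcripts only, as given below.

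**Figure D1:**
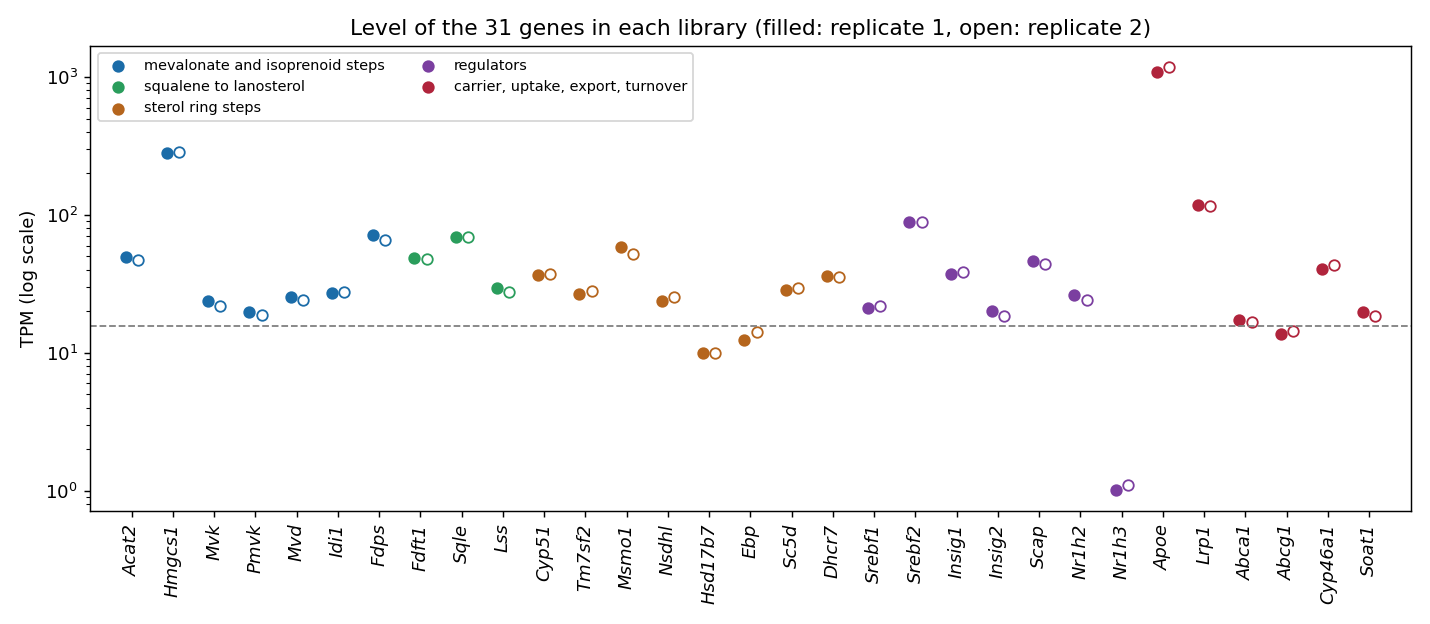
Level in TPM (log axis) of the 31 genes in replicate 1 (filled) and replicate 2 (open), ordered along the pathway and coloured by role; the dashed line is the median of detected protein-coding genes, 15.7 TPM. Hmgcs1 and Apoe stand well above the other genes of their role, Nr1h3 lies at the detection limit, and the open and filled points of each gene are close together.

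In the first stretch, from acetoacetyl-CoA to farnesyl diphosphate, Hmgcs1 stood alone. Hmgcs1 (chromosome 13, 119690379 to 119708260, mm10) had 282.44 TPM in replicate 1 and 286.16 TPM in replicate 2, a mean of 284.3 ± 2.63 TPM (SD, n = 2), higher than 98.6% of detected protein-coding genes. Acat2, which in the mouse is the cytosolic thiolase that makes acetoacetyl-CoA, had 49.33 TPM in replicate 1 and 47.01 TPM in replicate 2. The 4 enzymes from Mvk to Idi1 were lower and alike. Mevalonate kinase, Mvk, had 23.59 TPM in replicate 1 and 21.7 TPM in replicate 2. Phosphomevalonate kinase, Pmvk, had 19.74 TPM in replicate 1 and 18.85 TPM in replicate 2 and was the lowest of the 7. Mvd, the decarboxylase that yields isopentenyl diphosphate, had 25.29 TPM in replicate 1 and 24.11 TPM in replicate 2. Idi1, which isomerises that product, had 27.05 TPM in replicate 1 and 27.63 TPM in replicate 2. Fdps, the farnesyl diphosphate synthase whose product also feeds prenylation, dolichol and ubiquinone, had 71.5 TPM in replicate 1 and 66.03 TPM in replicate 2, above the 4 enzymes from Mvk to Idi1 in both libraries.

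The entry into sterols was carried by enzymes at middle to high levels. Fdft1, squalene synthase, had 48.43 TPM in replicate 1 and 48.01 TPM in replicate 2. Its ratio to Fdps was -0.51 ± 0.07 on the log2 scale (SD, n = 2). Sqle, squalene monooxygenase, the oxygen-dependent step often called a second control point of the pathway, had 68.73 TPM in replicate 1 and 69.64 TPM in replicate 2. Lss, which folds oxidosqualene into lanosterol, had 29.5 TPM in replicate 1 and 27.62 TPM in replicate 2, and Sqle over Lss was 1.28 ± 0.08 on the log2 scale of TPM (SD, n = 2). Most of the Lss level lies in transcripts annotated as non-coding. Over coding transcripts alone Lss had 8.24 TPM in replicate 1 and 7.04 TPM in replicate 2, and Sqle over Lss was 3.16 ± 0.17 (SD, n = 2), an alternative chosen after seeing the data.

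The ring enzymes from lanosterol onward had a median of 28.2 ± 0.813 TPM (SD, n = 2). Cyp51, lanosterol 14-alpha-demethylase, had 36.93 TPM in replicate 1 and 37.27 TPM in replicate 2, and Tm7sf2, a sterol C14-reductase, had 26.88 TPM in replicate 1 and 28.07 TPM in replicate 2. The 3 enzymes that strip the C4 methyl groups were far apart from one another. Msmo1, the C4-methyl oxidase, had 58.4 TPM in replicate 1 and 52.04 TPM in replicate 2 and was the highest ring enzyme in both libraries. Nsdhl, the C4 decarboxylating dehydrogenase, had 23.67 TPM in replicate 1 and 25.57 TPM in replicate 2. Hsd17b7, the 3-keto reductase of the same complex, had 9.89 TPM in replicate 1 and 10.04 TPM in replicate 2 and was the lowest of all 18 enzymes by gene TPM. Over coding transcripts alone it had 8.08 TPM in replicate 1 and 8.23 TPM in replicate 2, and Lss had the lowest mean, 7.64 TPM, its libraries falling on either side of Hsd17b7. By gene TPM Ebp, the delta8-delta7 isomerase, was next lowest with 12.44 TPM in replicate 1 and 14.23 TPM in replicate 2. Sc5d, which introduces the C5 double bond, had 28.44 TPM in replicate 1 and 29.55 TPM in replicate 2, and Dhcr7, which makes the last reduction of the ring, had 35.88 TPM in replicate 1 and 35.5 TPM in replicate 2. Dhcr7 over Sc5d was 0.3 ± 0.05 and Dhcr7 over Tm7sf2 was 0.38 ± 0.06 on the log2 scale of TPM (SD, n = 2 each).

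The Bloch and Kandutsch-Russell routes run through these same 8 ring enzymes. They differ in when the side-chain double bond is reduced, and none of the 31 genes acts in only 1 of them. The levels of the 8 therefore give no division between the routes. Lbr, the lamin B receptor and a paralog of Tm7sf2 with C14-reductase activity of its own, had 6.73 TPM in replicate 1 and 9.47 TPM in replicate 2, below Tm7sf2 in both libraries.

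Other paralogs of the enzymes were low or listed at 0, apart from the mitochondrial thiolase Acat1 with 62.11 TPM in replicate 1 and 57.33 TPM in replicate 2. Acat1 was the only 1 of 3 paralogs tested to pass the test between the libraries, against 11.8% of all genes tested. It was higher in replicate 1 by 0.18 on the log2 scale (exact binomial test, adjusted p = 3.15e-06). Idi2 was listed at 0 counts in both libraries. Acat3, a further thiolase paralog, had 1.01 TPM in replicate 1 and 1.25 TPM in replicate 2. The Acat2 count is not a whole number, and its deposited posterior SD was 4.05 of 2120.39 counts in replicate 1; which gene shares those reads was not tested.

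Among the regulators, Srebf2 was the highest. Srebf2 (chromosome 15, 82147181 to 82205379), whose protein is the SREBP most tied to cholesterol genes, had 88.69 TPM in replicate 1 and 89.61 TPM in replicate 2, higher than 92.2% of detected protein-coding genes. Srebf1 (chromosome 11, 60199089 to 60222581), whose protein is most tied to fatty acid genes, had 20.98 TPM in replicate 1 and 21.73 TPM in replicate 2. Srebf2 over Srebf1 was 2.06 ± 0.03 on the log2 scale (SD, n = 2), a 4.18-fold ratio of TPM. Scap, the escort of both, had 46.48 TPM in replicate 1 and 43.76 TPM in replicate 2. Insig1, itself an SREBP target, had 37.08 TPM in replicate 1 and 38.59 TPM in replicate 2, and Insig2, largely independent of SREBPs, had 20.15 TPM in replicate 1 and 18.33 TPM in replicate 2. Insig1 over Insig2 was 0.98 ± 0.14 (SD, n = 2) on the log2 scale of TPM.

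The liver X receptors were far apart. Nr1h2, the broadly expressed LXR beta, had 26.15 TPM in replicate 1 and 24.28 TPM in replicate 2. Nr1h3, LXR alpha (chromosome 2, 91184061 to 91202834), had 1.01 TPM in replicate 1 and 1.1 TPM in replicate 2, from 30 and 26 counts, in the lowest 0.111% of detected protein-coding genes. Genes under 1 TPM in either library are left out of that set, so a gene just above 1 TPM ranks at its bottom. Nr1h2 over Nr1h3 was 4.58 ± 0.16 on the log2 scale of TPM (SD, n = 2). At 30 and 26 counts the exact 95% counting interval of the Nr1h3 ratio between the libraries runs from -0.71 to 0.91, so no difference of that gene within this interval was detectable at this depth.

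Srebf1 is read from more than 1 promoter, and the first exon sets which protein is made. The upstream first exon 1a gives the stronger activator and the downstream exon 1c gives the form that dominates in liver. The annotated starts of the 4299-base coding transcript with exon 1a and the 3177-base coding transcript with exon 1c lie 10139 bases apart. The exon 1a transcript had 7.26 TPM in replicate 1 and 7.2 TPM in replicate 2 in the alignment-based transcript table, and the exon 1c transcript had 3.59 TPM in replicate 1 and 3.7 TPM in replicate 2. The log2 ratio of the first over the other was 0.99 ± 0.04 (SD, n = 2) there and 0.54 ± 0.23 (SD, n = 2) in the FASTQ-based table, on the side of exon 1a in both libraries by both routes. The exon 1a transcript held 33.9% of Srebf1 TPM on average and 61.4% of its counts; TPM divides by length, and most entries with later starts are short. A further, non-coding transcript that starts near exon 1c had 0 TPM in replicate 1 and 0 TPM in replicate 2 in the alignment-based table and 2.9 TPM in replicate 1 and 4.73 TPM in replicate 2 in the FASTQ-based table. With it, the summed TPM at exon 1c was 8.34 in replicate 1 and 11 in replicate 2 in the FASTQ-based table, against 8.85 and 8.12 in the same libraries at exon 1a, so the order of the 2 starts by summed TPM differs between the libraries on that route.

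**Figure D2:**
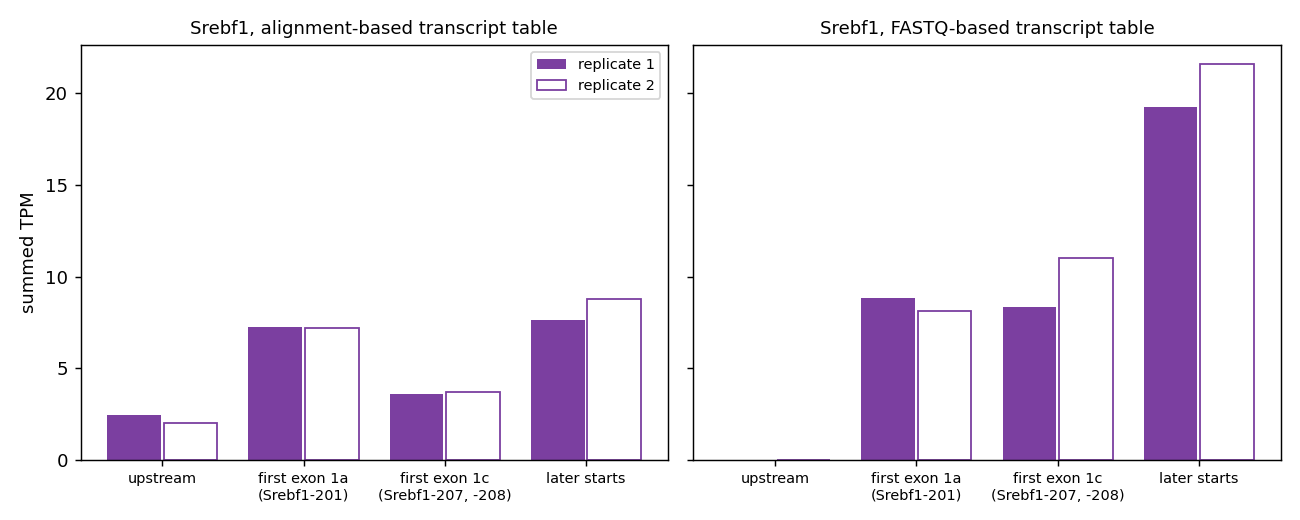
Summed TPM of Srebf1 transcripts by annotated start, in the alignment-based table (left) and the FASTQ-based table (right), for replicate 1 (filled) and replicate 2 (open). Exon 1a exceeds exon 1c by alignment, with 7.26 against 3.59 TPM in replicate 1. By the FASTQ-based route they have 8.85 against 8.34 TPM in replicate 1 and 8.12 against 11 TPM in replicate 2. Later starts sum to more than exon 1a, with 7.65 TPM in replicate 1 and 8.8 TPM in replicate 2 by alignment. By the FASTQ-based route they sum to 19.2 TPM in replicate 1 and 21.6 TPM in replicate 2.

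Apoe led the handling genes. Apoe (chromosome 7, 19696109 to 19699188), the main lipoprotein carrier secreted by astrocytes, had 1093.04 TPM in replicate 1 and 1182.88 TPM in replicate 2, a mean of 1138 ± 63.5 TPM (SD, n = 2). Lrp1, a large endocytic receptor for apolipoprotein E, had 118.06 TPM in replicate 1 and 116.1 TPM in replicate 2, and Apoe over Lrp1 was 3.28 ± 0.10 on the log2 scale (SD, n = 2). The 9 astrocyte markers were all detected, with summed levels of 1907.84 TPM in replicate 1 and 1915.86 TPM in replicate 2.

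The export and turnover genes were below both in each library. Abca1, which loads cholesterol onto lipid-poor apolipoproteins, had 17.14 TPM in replicate 1 and 16.78 TPM in replicate 2. Abcg1, which loads it onto formed particles, had 13.67 TPM in replicate 1 and 14.35 TPM in replicate 2. Abca1 over Abcg1 was 0.28 ± 0.07 (SD, n = 2) on the log2 scale of TPM, and -0.020 by the FASTQ-based route, so their order turns with the route. Cyp46a1, the cholesterol 24-hydroxylase of neurons, had 40.23 TPM in replicate 1 and 43.54 TPM in replicate 2, and stood 1.3 ± 0.10 above Abca1 and 1.58 ± 0.03 above Abcg1 on the log2 scale of TPM (SD, n = 2 each). Soat1, the sterol O-acyltransferase that makes cholesteryl esters for storage, had 19.84 TPM in replicate 1 and 18.57 TPM in replicate 2. The symbols invite confusion, since the SOAT proteins are also called ACAT, while mouse Acat2 is the thiolase named above. Acat2 over Soat1 was 1.33 ± 0.02 on the log2 scale of TPM (SD, n = 2). Soat2, the liver and gut form, had 0 counts in replicate 1 and 2 in replicate 2.

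Of the other enzymes that make or break down oxysterols, 2 of 6 were detected at 1 TPM in both libraries. Cyp7b1, oxysterol 7-alpha-hydroxylase, had 10.82 TPM in replicate 1 and 12.25 TPM in replicate 2, and Hsd3b7, an enzyme of bile acid synthesis, had 2.27 TPM in replicate 1 and 3.29 TPM in replicate 2. Cyp7a1, the rate-limiting enzyme of bile acid synthesis in liver, had 0 counts in both. Cyp46a1 was above all 6 in each library.

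Few of the 31 genes passed a test between the libraries. Of 30 with a mean count of at least 100, 2 passed a two-sided exact binomial test on TMM-scaled counts at an adjusted p under 0.05, Apoe and Srebf2, both lower in replicate 1 than in the library labelled male, replicate 2. Over all 12879 genes tested, 1517 passed, 11.8%, with 5.5% higher and 6.28% lower in replicate 1. None of the 30 passed with a 2-fold difference, against 0.303% of all genes tested. At an unadjusted p under 0.05 there were 5 of the 30, with a log2 ratio above 0 for Fdps and below 0 for Apoe, Srebf2, Nr1h2 and Cyp46a1, and 2957 of the 12879 genes tested, 23%. It is a comparison of reads from 2 libraries, not of conditions.

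Apoe had 23668 counts in replicate 1, against 23420 for the library labelled male, replicate 2, a log2 ratio of -0.098 (exact binomial test, adjusted p = 1.52e-11), with an exact 95% counting interval of -0.12 to -0.07. Srebf2 had 7392 counts in replicate 1 and 7172 in replicate 2, a log2 ratio of -0.07 (exact binomial test, adjusted p = 0.0355), with an interval of -0.12 to -0.02. Srebf2 misses the threshold with total counts in place of TMM (exact binomial test, adjusted p = 0.0638) and when all genes with a count are tested (adjusted p = 0.067). Both differences are small. The median absolute log2 ratio was 0.06 over the 30 genes and 0.07 over all genes tested, and the biological coefficient of variation across 17874 genes was 0.0688. Of the 30 genes, 19 lay inside the middle range of all genes, between the lower quartile at -0.07 and the upper quartile at 0.07.

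Of the 18 synthetic enzymes listed, 0 passed the exact binomial test. At an unadjusted p under 0.05 there was 1 of 18, Fdps, where 23% of all genes tested lie. By the FASTQ-based counts 1 of 18, Nsdhl, passed, against 11.9% of all genes tested on that route. Their log2 ratios ran from -0.19 in Ebp to 0.13 in Mvk, 8 above 0 and 10 below. The mevalonate enzymes had a median of 0.06 and the ring enzymes of -0.05, against -0.00027 over all genes tested. The 6 regulators tested all had ratios below 0, from -0.16 in Nr1h2 to -0.02 in Scap. The exact 95% counting intervals of Srebf1, Insig1, Insig2 and Scap include 0. Over all 12879 genes tested, 6450 had ratios below 0. Of the 6 regulators 1 passed, Srebf2, against 11.8% of all genes tested. In 7 of the 31 genes the TPM pointed the other way from the scaled counts, by at most 0.14 in log2 TPM. Abcg1 and the tested regulators Nr1h2, Insig2 and Scap were among the 7. The cause was not tested.

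**Figure D3:**
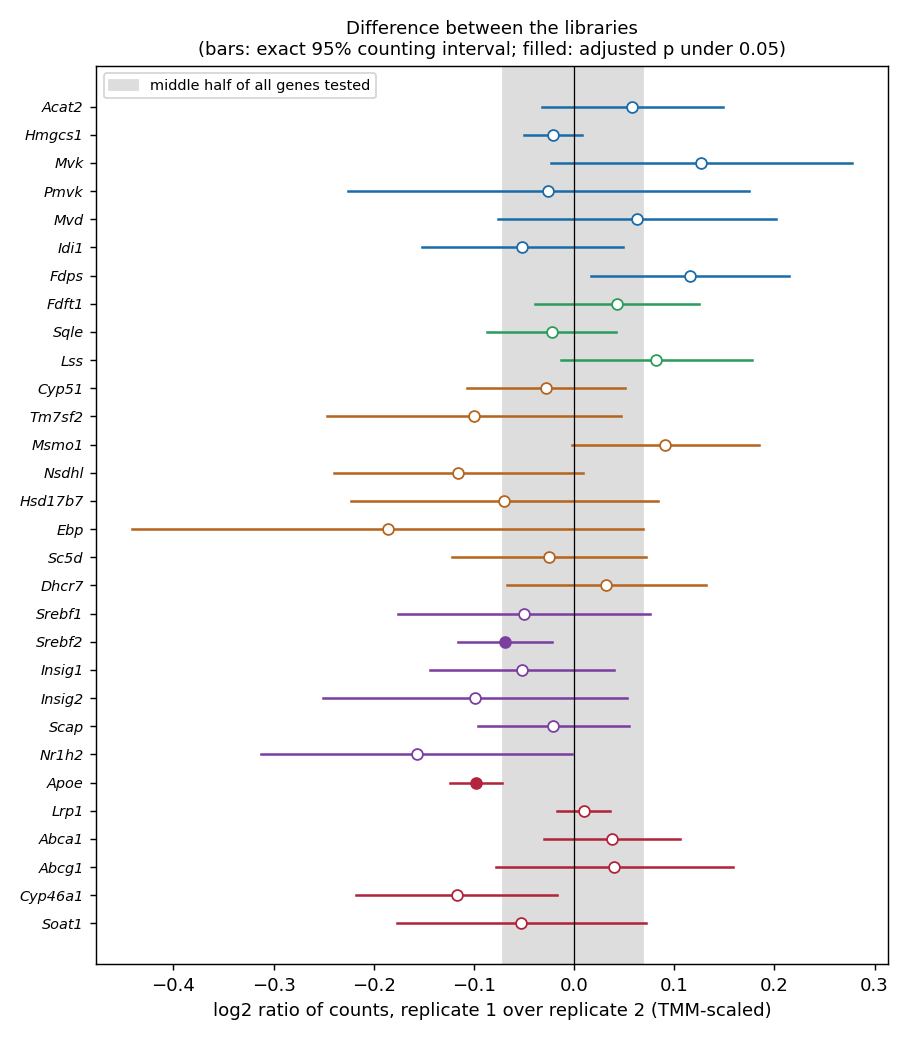
Log2 ratio of TMM-scaled counts, replicate 1 over replicate 2, for the 30 genes tested, with exact 95% counting intervals; filled points passed at an adjusted p under 0.05 and the grey band holds the middle range of all genes tested. Apoe and Srebf2 are filled, at -0.098 and -0.07, and no point lies beyond -0.19 or 0.13.

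Markers of myelin, choroid plexus and blood had larger ratios between the libraries than any of the 30 genes. All 7 myelin markers tested were lower in replicate 1, the median log2 ratio being -0.68, with summed levels over the 10 listed of 211.09 TPM in replicate 1 and 358.62 TPM in replicate 2. The highest was Mbp with 89.23 TPM in replicate 1 and 161.16 TPM in replicate 2. The 3 haemoglobin and haem genes that mark blood were higher in replicate 1, with sums of 667.99 TPM in replicate 1 and 382.91 TPM in replicate 2. The 7 choroid plexus markers summed to 13.27 TPM in replicate 1 and 357.47 TPM in replicate 2. Of these sums Ttr made 8.02 TPM in replicate 1 and 340.07 TPM in replicate 2. All 3 choroid markers tested were lower in replicate 1, and 2 of the 3 passed, against 6.28% passing as lower over all genes tested. Of 7 microglial markers, 3 passed, all lower in replicate 1, against 6.28% passing as lower over all genes tested. The 7 summed to 136.65 TPM in replicate 1 and 154.11 TPM in replicate 2. Of 9 astrocyte markers, 2 passed as higher and 4 as lower in replicate 1, against 5.5% and 6.28% of all genes tested. The part of these cells in the Apoe and Srebf2 differences was not tested.

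In the wider pathway, none of 8 genes of SREBP processing passed, against 11.8% of all genes tested. Their median log2 ratio was 0.02. Pgrmc1, a membrane protein that binds Insig1 and sterol enzymes, was the highest there with 136.14 TPM in replicate 1 and 132.01 TPM in replicate 2. None of 9 genes of the isoprenoid branches passed, with Nus1 and Ggps1, for dolichol and geranylgeranyl diphosphate, highest. Nus1 had 27.5 TPM in replicate 1 and 28.7 TPM in replicate 2, and Ggps1 had 28.57 and 26.55 TPM there. The lowest there was Pdss2, for the ubiquinone tail, with 7.54 TPM in replicate 1 and 8.42 TPM in replicate 2.

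Of 10 genes of fatty acid synthesis, 1 passed in each direction. Over all genes tested, 5.5% passed as higher and 6.28% as lower in replicate 1. Scd2, the stearoyl-CoA desaturase of brain, had 320.34 TPM in replicate 1 and 330.53 TPM in replicate 2 and was lower in replicate 1 by a log2 ratio of -0.05 (exact binomial test, adjusted p = 9.29e-05). Fasn, fatty acid synthase, had 128.29 TPM in replicate 1 and 122.31 TPM in replicate 2 and was higher, at 0.07 (exact binomial test, adjusted p = 0.000246). Acss2, which makes acetyl-CoA from acetate, was the lowest of the list with 21.94 TPM in replicate 1 and 21.76 TPM in replicate 2.

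Of 11 other carriers and receptors tested, 2 passed as higher and 4 as lower in replicate 1. These 6 of 11 stand beside 11.8% of all genes tested, and the median log2 ratio of the 11 was -0.09. Clu, apolipoprotein J, was the highest with 236.32 TPM in replicate 1 and 256.64 TPM in replicate 2, and it was lower in replicate 1 by a log2 ratio of -0.11. Lpl, lipoprotein lipase, was next with 85.08 TPM in replicate 1 and 83.89 TPM in replicate 2. Sorl1, a sorting receptor that binds apolipoprotein E, had 35.41 TPM in replicate 1 and 43.78 TPM in replicate 2, a log2 ratio of -0.3 (exact binomial test, adjusted p = 6.64e-38). Lrp8, a receptor for apolipoprotein E and reelin, had 76.83 TPM in replicate 1 and 66.89 TPM in replicate 2 and was higher in replicate 1, at 0.12 (exact binomial test, adjusted p = 0.000155). Vldlr, its partner in reelin signalling, had 24.32 TPM in replicate 1 and 27.46 TPM in replicate 2 and was lower in replicate 1, at -0.11 (exact binomial test, adjusted p = 0.0358). Pltp, the phospholipid transfer protein, was lower as well, with 32.7 TPM in replicate 1 and 37.19 TPM in replicate 2, and Apod, apolipoprotein D, was higher, with 16.07 TPM in replicate 1 and 11.65 TPM in replicate 2. Apoc1 was the lowest, with 2.91 TPM in replicate 1 and 1.79 TPM in replicate 2, and was not tested.

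Of 13 genes of intracellular sterol transport tested, 1 passed, against 11.8% of all genes tested. This was Gramd1b, which carries sterol from the plasma membrane to the endoplasmic reticulum. It had 54.68 TPM in replicate 1 and 59.37 TPM in replicate 2, lower in replicate 1 by a log2 ratio of -0.10 (exact binomial test, adjusted p = 0.00115). Its relative Gramd1a was the highest of the list with 64.04 TPM in replicate 1 and 56.89 TPM in replicate 2. Tspo, an outer mitochondrial membrane protein, was the lowest with 1.31 TPM in replicate 1 and 1.21 TPM in replicate 2.

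**Figure D4:**
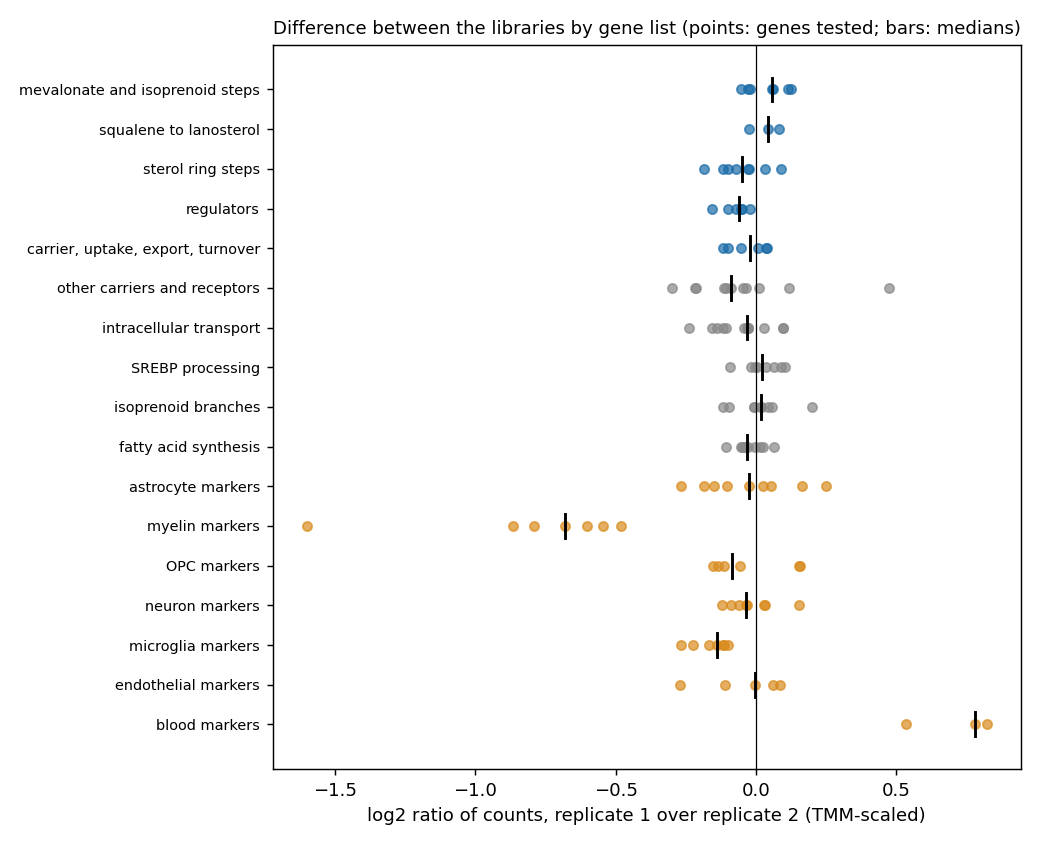
Log2 ratio of TMM-scaled counts, replicate 1 over replicate 2, by gene list; points are the genes tested, bars are list medians, and blue, grey and orange mark the 31 genes by role, other sterol and lipid lists and cell type markers. Myelin markers sit to the left with a median of -0.68 and blood markers to the right at 0.78, while the blue points stay between -0.19 and 0.13. Choroid markers, with Ttr at -5.41, and the oxysterol, paralog and hippocampal lists are not drawn.

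The counts of a gene were close by either quantification route, while its TPM moved more and its leading transcript often differed. After centring on the median shift of 0.6 between the routes, none of the 31 genes had FASTQ-based and alignment-based TPM more than 1 apart on the log2 scale, against 6.58% of 15645 genes. The largest centred differences were 0.48 in Dhcr7 and -0.44 in Soat1. Counts per gene were within 0.2 on the log2 scale between the routes for all 31. The leading transcript, the one with most of the TPM of its gene, was the same in both libraries and by both routes for 19 genes and differed for 12.

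For 5 of the 12, the leading transcripts of the routes in replicate 1 hold the same coding bases and differ in their untranslated exons. The highest of these is Apoe. Apoe-209 held 83.8% in replicate 1 and 80.5% in replicate 2 of Apoe TPM in the alignment-based table and none in the FASTQ-based table, where Apoe-205 held 95.1% in replicate 1 and 94.6% in replicate 2. The 2 share 1067 exon bases, 96.6% of Apoe-209 and 87.4% of Apoe-205. For Hmgcs1, a transcript of 3464 bases led with 67.6% in replicate 1 and 66.5% in replicate 2 by alignment and one of 3245 bases with 83.8% in replicate 1 and 85.2% in replicate 2 by the FASTQ-based route, and they share 3227 exon bases. Fdps-201 led with 88.4% in replicate 1 and 91.7% in replicate 2 by alignment and Fdps-203 with 74.7% in replicate 1 and 65.7% in replicate 2 by the other route. Fdft1 had the same leading transcript in replicate 2 by both routes and another in replicate 1 by the FASTQ-based one. In Nr1h3, with its few counts, the leading transcript also differed between the libraries on each route.

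For 6 others the leading transcripts also differ in coding bases. Mvd is the clearest. Mvd-201, protein-coding, held 99.1% in replicate 1 and 98.9% in replicate 2 of Mvd TPM by alignment. By the FASTQ-based route Mvd-202, annotated as a target of nonsense-mediated decay, held 100% in both libraries, although it shares 1730 exon bases with Mvd-201, 98.5% of it. The gene level of Mvd was 25.29 TPM in replicate 1 and 24.11 TPM in replicate 2 by alignment, and 34.1 TPM in replicate 1 and 32.9 TPM in replicate 2 by the FASTQ-based route. Acat2, Ebp, Nr1h2, Soat1 and Srebf1 were the others of the 6. Lss, the last of the 12, was led by a non-coding entry on both routes, with 27.9% in replicate 1 and 25.5% in replicate 2 of its TPM in coding transcripts by alignment.

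**Figure D5:**
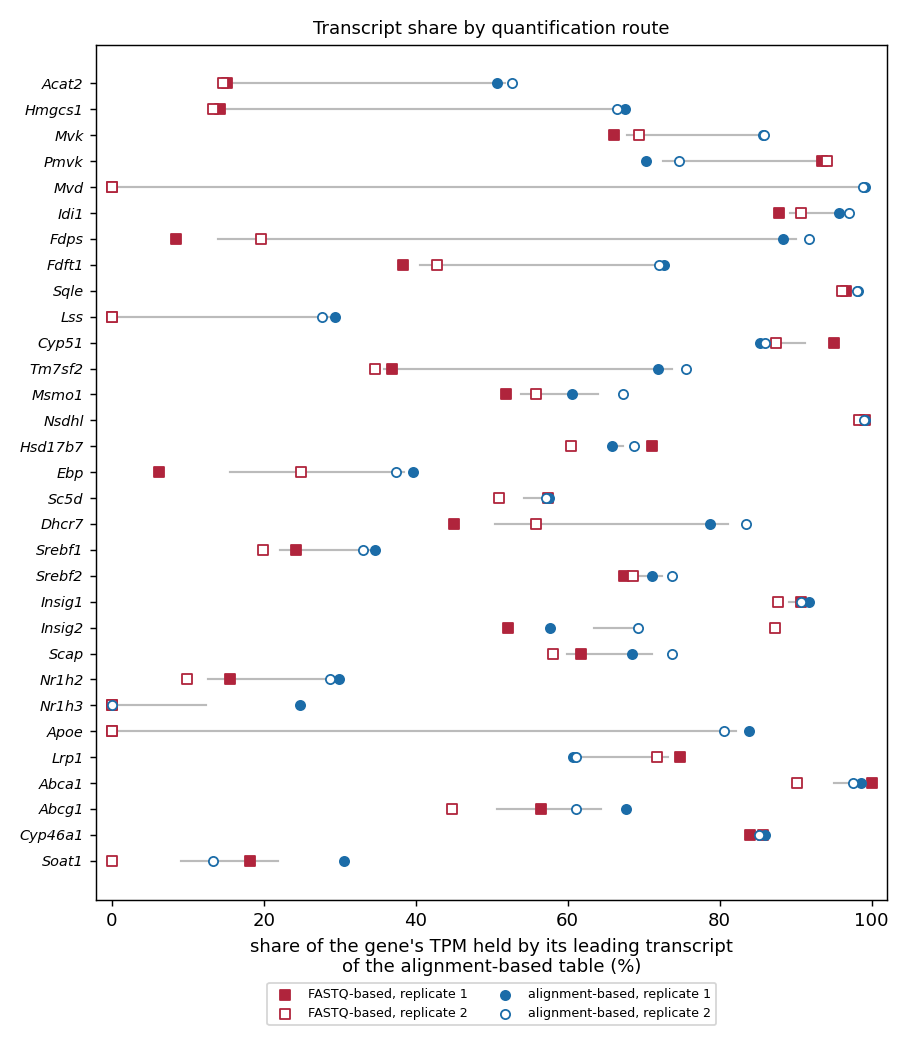
Share of a gene's TPM, in percent, held by the transcript that led in replicate 1 of the alignment-based table, in both libraries by alignment (circles) and by the FASTQ-based route (squares). For 11 of 31 genes the mean shares are 20 points or more apart, and Mvd, Apoe and Fdps are the widest; Sqle, Nsdhl and Cyp46a1 overlap.

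Overlapping genes limit a few of the levels, since no source used here gives the strand used in counting. Fdft1 overlaps the more abundant Ctsb on the other strand (6748 counts of Ctsb in replicate 1 and 6106 in replicate 2), Cyp51 overlaps Akap9 (5472 and 5058 in the same libraries) and Srebf1 overlaps Rai1 (3433 and 3248), each also on the other strand. Tm7sf2 overlaps Vps51 on its own strand (1325.98 and 1319.3 counts), and its deposited posterior SD was 6.3 counts of 764.98 in replicate 1. Gm20388, a gene model across Mvd on the other strand, had 0 counts in replicate 1 and 129.67 in replicate 2. For 26 of the 31 genes the counts were whole numbers with a posterior SD of 0 in both libraries, and the widest of the other 5 was Idi1 with an SD of 20.47 of 1659.61 counts in replicate 1.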

How the data were processed

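Total RNA-seq of 2 hippocampus libraries was used, both of 1 group per the labels. Gene and transcript tables with expected counts, TPM and, per transcript, a percent of its gene were deposited; per the deposited descriptions they come from transcriptome alignments to mm10 with GENCODE M21. Their deposited interval bounds of TPM (a signal that is never negative) were not used. A second deposited transcript table with estimated counts and TPM comes from the FASTQ file, called the FASTQ-based route here; its values were summed per gene. No source used here names the tools. The authors' TPM include spike-ins in the total.

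The 31 genes and all lists were chosen with earlier results of these data known. Named were all 31, the 2 highest, the lowest and any called gene of each further list, and the highest of marker lists; genes beyond these were chosen after their values were seen. Some genes that this rule names are not reported here, and counts and medians include all genes of a list. Rows named only by a number (26248, holding 2.81e-05% and 2e-05% of counts) and 97 spike-in rows (0.358% and 0.359%) entered neither library sizes nor tests.

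Expected counts were rounded, scaled by TMM (edgeR 4.0.16, R 4.3.3) and, at a mean count of at least 100, compared by an exact binomial test (two-sided; Benjamini-Hochberg adjustment) over 12879 genes; log2 ratios carry a prior count of 0.5. With 1 group, edgeR's quasi-likelihood test has no contrast. A p-value here sets the difference in reads between 2 libraries against counting error only, and the intervals cover the same error. Neither holds the spread between animals. On simulated data with counting noise only, 100% of 50 genes changed 1.5-fold and 16 of 12662 unchanged genes were called. The changed genes were drawn above a higher mean count than the filter of the test. No change under 1.5-fold was simulated, while the largest difference among the 30 genes was 1.14-fold, so no rate is given for changes of that size. Route ratios used a pseudocount of 0.1 TPM where the mean TPM reached 1. DESeq2 1.42.0 size factors, other filters, pseudocounts, the FASTQ-based values and single libraries were alternatives; coding transcripts only, and transcript shares by counts, were added after seeing the data. Promoter windows came from RefSeq (GRCm38.p6); Fdps, Fdft1, Sqle and Abcg1 are named without one. Protein identity was not analysed here. Python 3.11.15, pandas 2.3.3, scipy 1.17.1 and matplotlib 3.10.9 were used.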

Additional observations from a re-analysis of the deposited data

How the results depend on the processing

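Levels moved with the scale of TPM. With FASTQ-based TPM the medians were 43.7 TPM for the mevalonate enzymes, 66.1 for squalene to lanosterol, 47.2 for the ring enzymes, 44.2 for the regulators, 43.9 for the handling genes, 47.9 for the 18 enzymes and 44.5 for all 31. With TPM rescaled to protein-coding nuclear genes they were 59.2, 104.4, 61.2, 54.6, 66.2, 62.6 and 61.2 in the same order, and the construction of that scale, with fewer genes in the total, raises every gene alike. With coding transcripts only, the median of the squalene to lanosterol enzymes was 38.02, of the ring enzymes 26.69, of the regulators 16.51, of the handling genes 26.245, of the 18 enzymes 28.1 and of all 31 genes 27.115, and Sqle/Lss was 3.16. Called genes numbered 1 of 30 with total counts and 1 of 31 with any count above 0 tested, Srebf2 being lost in both; 2 with DESeq2 size factors or a mean count of at least 10; and 3 with FASTQ-based counts, Nsdhl being added. Abca1 over Abcg1 reversed to -0.020 with FASTQ-based TPM, against 0.28 by alignment. On that route Srebf2/Srebf1 was 1.79, Nr1h2/Nr1h3 5.15, Cyp46a1/Abcg1 1.31, Fdft1/Fdps -0.74, Dhcr7/Sc5d 0.84, Dhcr7/Tm7sf2 0.53, Apoe/Lrp1 3.49 and Acat2/Soat1 1.84. A pseudocount of 1 TPM gave 2.01 for Srebf2/Srebf1, 3.67 for Nr1h2/Nr1h3, 1.51 for Cyp46a1/Abcg1 and 1.28 for Acat2/Soat1. The Srebf1 transcript with exon 1a held 22.1% by the FASTQ-based route and 61.4% by counts, that with exon 1c 15.2% and 22.7%, and the median leading transcript 66.6% and 88.4%, against 33.9%, 17.1% and 72.1% in the alignment-based TPM. The cause of these shifts was not tested. Leaving out either replicate kept each of 22 levels, ratios and shares within the spread between the libraries, which with 2 libraries it must. No paired analysis was possible because there is 1 group. Depth limits Nr1h3 most, at 30 and 26 counts.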

Other observations

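Ebp and Nsdhl are the 2 X-linked genes of the 31. Their log2 ratios of replicate 1 over replicate 2 were -0.19 and -0.12, while the 445 X-linked genes tested had a median of 0.03, and 29.7% of these passed the test, against 11.8% of all genes tested. Neither of the 2 passed by alignment-based counts. Nsdhl passed by FASTQ-based counts.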
